A study of Homo sapiens with 6 samples.

Results

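The HOX genes encode homeobox transcription factors that lie in 4 clusters (HOXA, HOXB, HOXC and HOXD) and give cells their position along the head-to-tail axis of the embryo. Within a cluster, genes of low paralog number are used early and toward the head, and genes of high number late and toward the tail. HOX proteins bind DNA together with PBX and MEIS partners, Polycomb complexes keep clusters silent, MLL complexes keep them active, and retinoic acid opens them from the low-numbered end. The hindbrain and spinal cord use HOX genes, whereas the normal forebrain and midbrain leave them off. The genes described here are the protein-coding rows of the deposited expression table whose symbol is HOX, a cluster letter and a number. These were 39 of the 58174 genes in the table (19799 of them protein-coding).

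KNS42 cells are a laboratory line that was established from a pediatric glioblastoma (GBM). All 6 libraries came from KNS42 cells in DMEM with 10% serum, transfected either with control siRNA (siC, 3 libraries) or with siRNA against MSI1 (siMSI1, 3 libraries), and RNA was taken 72 h later for polyA mRNA-seq. MSI1 (Musashi1) is an RNA-binding protein of neural stem cells. The comparison asks how transcript levels differ upon MSI1 knockdown. The labels do not say whether the replicates were separate cultures, so p-values measure only the spread between these samples. Since the cells were measured in bulk, fewer cells of a type and less RNA per cell cannot be told apart.

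The libraries held 13087025 to 18024080 reads on genes. MSI1 itself ranged from 61.9 to 66.9 FPKM (fragments per kilobase of gene, scaled to the size of the library) in the 3 siC libraries and from 11.2 to 12.3 in the 3 siMSI1 libraries, or 18.5% of the siC mean. Of 10 neural and glial markers, 8 were expressed and 2 (S100B and OLIG2) were at 0 in all libraries, with a summed level of 1515 to 1580 FPKM in siC and 1249 to 1349 FPKM in siMSI1, most of it VIM. The sum hides members that moved in opposite directions. FABP7, SOX9 and CD44 fell (log2 fold changes −1.12, −0.61 and −0.46), FABP7 from a mean of 36.1 to 16.6 FPKM. GFAP, the astrocyte filament, rose from a mean of 1.63 to 4.61 FPKM (log2 fold change 1.46, adjusted p = 0.00090 by limma). PTPRZ1 had means of 4.52 FPKM in siC and 6.66 FPKM in siMSI1 and did not pass the threshold of 0.01 (adjusted p = 0.0103 by limma). Of 12 markers of blood, vessel, epithelial, liver and muscle cells, 11 stayed below 1 FPKM in all libraries, with AIF1 at 0, and KRT18 was the exception. The 12 summed to 22.3 to 25.4 FPKM in siC and 19.0 to 22.8 FPKM in siMSI1, most of it KRT18. The part of these shifts in the HOX results was not tested.

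KNS42 cells expressed HOX genes of all 4 clusters. Upon MSI1 knockdown 2 of them fell and none rose past the test. In 15 of the 28 tested, every siMSI1 library was lower than any siC library (53.6%, beside 21.5% of all tested genes). For the test, limma was applied to log2(FPKM + 0.1), with a filter at a mean of 0.5 FPKM that kept 15069 genes, with Benjamini-Hochberg adjustment and a threshold of 0.01. Of the 39 HOX genes, 28 passed this filter. HOXA3 and HOXC10 fell, which is 2 of 28 (7.14%), beside 5.83% of all tested genes that fell. The count of 2 is thus near the background. No HOX gene rose (0 of 28), beside 5.15% of all tested genes. The count that rose was also 0 at an unadjusted p under 0.05, beside 19% of all tested genes, and 0 by voom (limma on read counts recovered from the FPKM), beside 8.81%. At an unadjusted p under 0.05, 12 of the 28 were lower in siMSI1, beside 19.3% of all tested genes. At an adjusted p of at most 0.05, 8 of the 28 were lower, beside 12.9%, and by voom 4, beside 10.1%. The 12 and the 4 include HOXB13, which passed the filter through siC only, the group where it was higher.

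The direction was shared by more genes than the test called. The log2 fold change was below 0 for 22 of 28 genes (78.6%), beside 50% of all tested genes. In 15 of the 28 (53.6%), all 3 siMSI1 values lay below all 3 siC values, beside 21.5% of all tested genes. The opposite order, all siMSI1 values above all siC values, was found in 0 HOX genes, beside 21.4%. The median log2 fold change was −0.28 over the 28 genes and 1.46e-05 over all tested genes. Genes of a cluster are neighbours and share some exon sequence, so these counts are not over independent genes. 4 of the 28 passed the filter through 1 group only: HOXB13 and HOXD11 through siC, and HOXD3 and HOXD4 through siMSI1. HOXB13 and HOXD11 are among the 15 genes with siMSI1 entirely below siC.

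The mean levels in siC span from 0 to 34.0 ± 0.870 FPKM (SD, n = 3), and a few genes of each cluster make up most of it. Summed over the 39 genes, siC held 130.0 ± 2.15 FPKM (SD, n = 3), of which the HOXB genes made up 57.0%, HOXA 21.3%, HOXD 13.7% and HOXC 8.03%. HOXB3 alone made up 26.2% of the HOX sum and 45.9% of the HOXB sum. It stood at the 92.5 percentile of protein-coding genes in siC. HOXA3, the paralog of HOXB3, came next at 15.1 ± 0.382 FPKM, followed by HOXB6 at 11.1 ± 1.13 and HOXD9 at 8.85 ± 0.670 FPKM (SD, n = 3 each). The values of HOXB3, HOXA3, HOXB6 and HOXD9 in the 3 siC libraries did not overlap with those of the next gene in this order, except that HOXD9 overlapped with HOXB8 (7.38 ± 0.979 FPKM). HOXB8 also overlapped with HOXB9 (6.34 ± 0.854 FPKM). From HOXA2 (3.13 ± 0.260 FPKM) downward, each gene overlapped with the next.

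**Figure D1:**
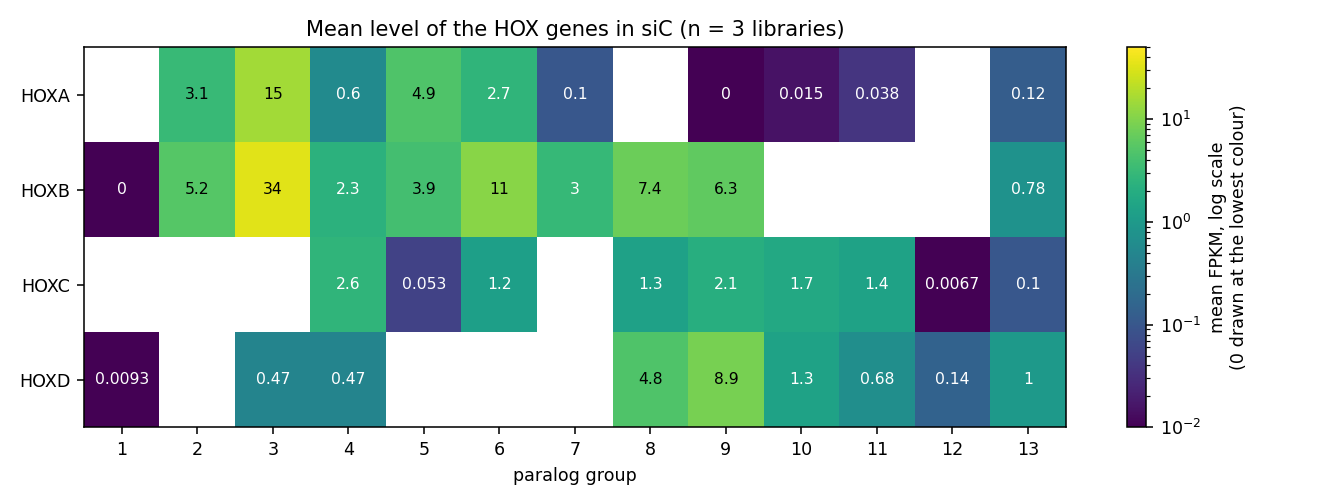
Mean FPKM of 38 HOX genes in the 3 siC libraries (colour, log scale, with the value printed in the cell) by cluster (rows) and paralog group (columns). White cells have no gene or 1 that is not shown. HOXB3 has the highest mean (34.0 FPKM), HOXA is expressed up to group 6, and HOXB from group 2 to 9 and at 13.

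The position of the expressed genes differed between clusters. In HOXA, genes up to HOXA6 were expressed and the 5 of groups 7 to 13 were below the filter. In HOXB, the 8 genes from HOXB2 to HOXB9 were expressed, HOXB1 had 0 to 2 reads, and HOXB13, which lies 98.4 kb beyond HOXB9, was low. HOXC was expressed at low levels in the middle and up to HOXC11, with HOXC5 below the filter. HOXC5 shares 1084 of its 1611 exon bases with AC012531.2 and 611 with AC012531.3, both on the same strand. Reads from these bases cannot be assigned to HOXC5 by strand, so its low count need not mean low expression. HOXD was highest at HOXD9 and HOXD8 and lower at HOXD10, HOXD11, HOXD13, HOXD3 and HOXD4. No library held more than 12 reads of any of the 11 genes below the filter, and 6 of them (HOXA9, HOXA10, HOXA11, HOXB1, HOXC12 and HOXD1) had at most 3 reads in every library. The other 5 were HOXA7 (0 to 8 reads), HOXA13 (2 to 12 reads), HOXC5 (0 to 4 reads), HOXC13 (0 to 6 reads) and HOXD12 (0 to 8 reads). At this depth, 3 reads on a gene of 2 kb correspond to 0.0829 to 0.114 FPKM, so lower levels were not detectable, and no change was read from these 11 genes.

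The HOXA cluster lies on chromosome 7 (GRCh38, minus strand), and its genes above and below the filter meet between HOXA6 and HOXA7. The antisense gene HOXA-AS3 shares 505 of the 1285 exon bases of HOXA6 and 1507 of the 2411 of HOXA7. Whether the counting used the strand is not given, so this boundary rests on genes whose reads may not be fully separate from HOXA-AS3. RefSeq promoter sequences (GRCh38.p14) were matched for 20 of the 39 HOX genes. 3 of them are shown because they flank this boundary or belong to the HOXA gene that fell: HOXA6, the last expressed gene at 2.66 ± 0.153 FPKM in siC, HOXA7, the first gene below the filter at 0.103 ± 0.112 FPKM, and HOXA3 (SD, n = 3 each). Each line gives 100 bases before to 50 bases after the RefSeq start on the minus strand, with CG dinucleotides in capitals.
HOXA3, chr7:27152534-27152683: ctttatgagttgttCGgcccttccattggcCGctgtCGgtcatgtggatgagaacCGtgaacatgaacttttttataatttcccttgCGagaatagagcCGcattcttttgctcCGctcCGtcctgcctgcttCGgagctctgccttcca
HOXA6, chr7:27147725-27147874: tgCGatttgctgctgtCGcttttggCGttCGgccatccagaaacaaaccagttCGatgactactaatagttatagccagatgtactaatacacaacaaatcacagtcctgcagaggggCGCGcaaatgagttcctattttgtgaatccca
HOXA7, chr7:27156626-27156775: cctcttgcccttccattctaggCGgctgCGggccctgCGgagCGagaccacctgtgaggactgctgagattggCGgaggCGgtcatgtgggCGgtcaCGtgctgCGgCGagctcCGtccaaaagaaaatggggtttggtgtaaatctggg

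These windows held 9 CG in HOXA3, 7 in HOXA6 and 11 in HOXA7, so HOXA7 had the most. The RefSeq start of HOXA3 lies upstream of HOXA6, so the long HOXA3 gene (27106184 to 27152583) spans HOXA4, HOXA5 and HOXA6. Over the full windows of 300 bases, the 20 HOX promoters held a median of 22.5 CG, against 14 in all 27305 promoters of the table. The median was 24 in the 11 promoters of tested HOX genes and 21 in the 9 of genes below the filter. The motif TGATNNAT, a form of the joint PBX-HOX site, was found on either strand in 3 of the 20 (HOXA2, HOXB1 and HOXD11), which is 15% beside 7.60% of all promoters. TGACAG, a MEIS site, was in 4 (20% beside 15.9%) and TATAAA, the TATA box, in 4 (20% beside 12.0%). HOXC4 and HOXC5 have the same promoter window in the table, so 1 sequence was counted for both. Such matches describe letters in these windows only.

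In the HOXA cluster, HOXA3 fell upon MSI1 knockdown. HOXA3 patterns the pharyngeal arches that give the thymus and parathyroid. Its level was 15.3, 15.5 and 14.7 FPKM in siC and 10.8, 10.2 and 10.1 FPKM in siMSI1. The groups were far apart relative to the spread within them, with SDs of 0.382 and 0.408 FPKM. The siMSI1 mean was 68.4% of the siC mean, with a log2 fold change of −0.54 (standard error 0.065, 95% interval −0.70 to −0.39, adjusted p = 0.0013 from limma, n = 3 per group). The value rests on 574 to 1204 reads per library. Without siC replicate 1 the log2 fold change was again −0.54, but the adjusted p of 0.011 missed the threshold.

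HOXA3 overlaps an antisense gene whose values went the other way. HOXA-AS2 lies on the opposite strand from 27107777 to 27134302 and shares 455 of the 4308 exon bases of HOXA3. It measured 4.49, 4.16 and 4.75 FPKM in siC and 5.74, 6.28 and 6.16 FPKM in siMSI1, so all siMSI1 libraries were above all siC libraries. Its log2 fold change was 0.43 (standard error 0.088) and its adjusted p of 0.011 by limma missed the threshold. By voom, 1 of the 6 tested lncRNA genes of the clusters was higher past the threshold, beside 8.81% of all tested genes. With a filter at a mean of 1 FPKM that count was also 1. HOXA-AS2 was the only 1 of the 6 with all siMSI1 values above all siC values. The library kit marked the strand, but whether the counting used it is not given in the sources used here, so reads from the shared bases cannot be assigned to 1 of the genes. HOXA3 also shares 290 exon bases with the antisense gene HOXA-AS3 and, on its own strand, 378 with AC004080.6 and 296 with AC004080.5. Reads from the same-strand bases cannot be assigned by strand.

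The other HOXA genes had lower siMSI1 values or overlapping groups. HOXA2, which patterns the hindbrain and the jaw and ear region, measured 3.29, 2.83 and 3.28 FPKM in siC and 2.43, 1.80 and 1.95 FPKM in siMSI1 (log2 fold change −0.59, adjusted p = 0.019). HOXA5, a regulator of lung and neck development, measured 4.97, 4.95 and 4.64 FPKM in siC and 4.29, 3.53 and 3.71 FPKM in siMSI1 (−0.33, adjusted p = 0.046). HOXA6 measured 2.75, 2.75 and 2.49 FPKM in siC and 2.38, 1.42 and 1.95 FPKM in siMSI1 (−0.48, adjusted p = 0.090). The siMSI1 libraries of these 3 genes all lay below the siC libraries, and none of the genes was past the threshold. HOXA4 measured 0.420, 0.696 and 0.676 FPKM in siC and 0.621, 0.524 and 1.28 FPKM in siMSI1 (0.31), with 11 to 32 reads per library. Its groups overlapped, and the higher siMSI1 mean came from 1 library, siMSI1 replicate 3, without which the log2 fold change was −0.030. The 11 HOXA genes together had 27.8 ± 0.727 FPKM in siC and 20.2 ± 1.71 FPKM in siMSI1 (SD, n = 3), or 73.0% of siC.

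**Figure D2:**
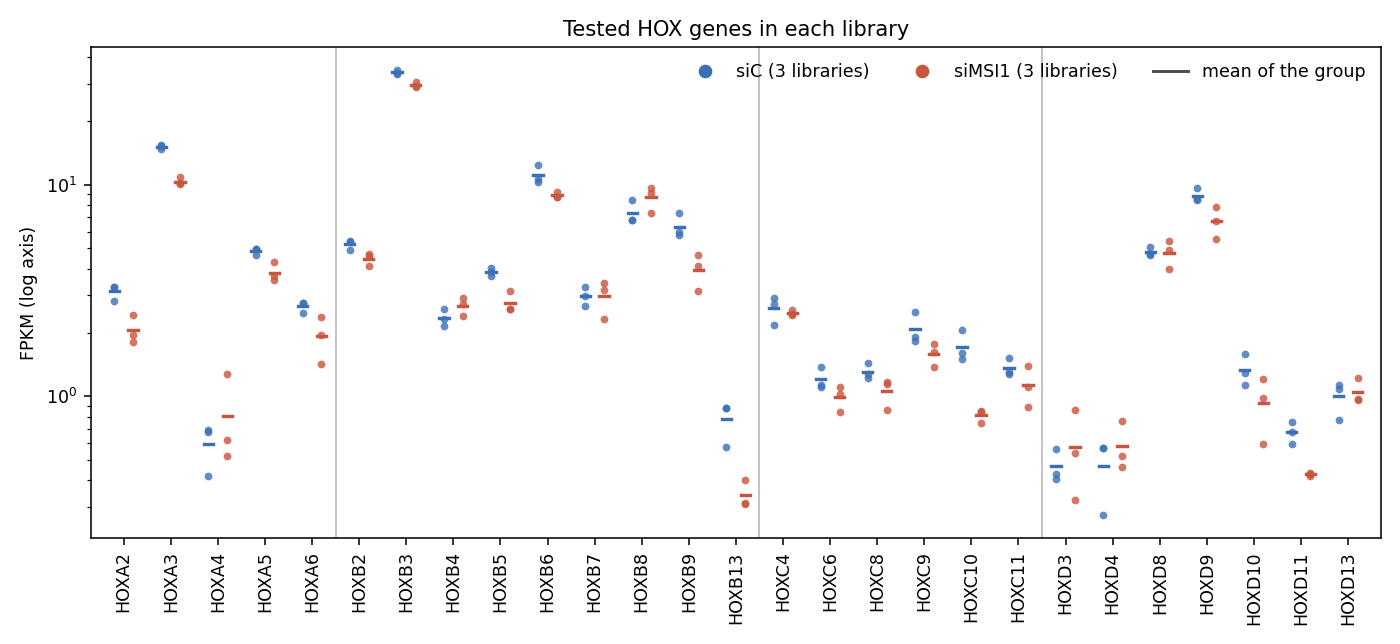
FPKM (log axis) of 27 tested HOX genes in each of the 3 siC (blue) and 3 siMSI1 (red) libraries, with horizontal lines at the group means and vertical lines between clusters. The siMSI1 points lie below all siC points in 15 genes, among them HOXA3, HOXB3, HOXB9 and HOXC10, and above them in none. Of all tested genes, 21.5% lay below and 21.4% above.

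The HOXB cluster, on chromosome 17 from 48528526 to 48728750 (GRCh38, minus strand), held the highest HOX levels and no gene past the threshold (0 of 9 tested by limma). At an unadjusted p under 0.05 there were 6, all lower, beside 19.3% of all tested genes. By voom there were 2, both lower, beside 10.1% of all tested genes. The 6 and the 2 include HOXB13, which passed the filter through siC only. HOXB3, which acts in the hindbrain, measured 33.7, 35.0 and 33.3 FPKM in siC and 29.3, 30.7 and 29.0 FPKM in siMSI1. The groups did not overlap, yet the difference was small, with a log2 fold change of −0.20 (95% interval −0.33 to −0.057, adjusted p = 0.048). HOXB2, its neighbour toward the head, measured 5.43, 4.92 and 5.36 FPKM in siC and 4.62, 4.11 and 4.68 FPKM in siMSI1 (−0.22, adjusted p = 0.11). HOXB6 measured 10.6, 10.3 and 12.4 FPKM in siC and 8.78, 8.73 and 9.20 FPKM in siMSI1 (−0.31, adjusted p = 0.034). All 3 genes were lower in each siMSI1 library than in any siC library. HOXB6 shares 433 of its 2604 exon bases with HOXB3 on the same strand, so their reads are not fully separate.

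HOXB5 and HOXB9 had larger differences than HOXB3. HOXB5, known for its role in enteric neural crest cells, measured 4.02, 3.68 and 3.88 FPKM in siC and 2.59, 2.58 and 3.14 FPKM in siMSI1 (log2 fold change −0.47, adjusted p = 0.019). HOXB9, a gene of the thoracic region, measured 5.95, 5.76 and 7.33 FPKM in siC and 4.13, 3.13 and 4.64 FPKM in siMSI1 (−0.67, standard error 0.159, adjusted p = 0.019). Neither was past the threshold of 0.01 in these 6 libraries, and HOXB5 was past it (adjusted p = 0.0089) without siMSI1 replicate 3. HOXB9 was past it with voom on the recovered reads (adjusted p = 0.0030).

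Next to them, 3 HOXB genes did not share the direction or the size. HOXB8, a gene of spinal cord and blood progenitors that lies 5.86 kb from HOXB9, measured 6.80, 6.82 and 8.51 FPKM in siC and 9.10, 7.36 and 9.64 FPKM in siMSI1 (log2 fold change 0.23, 95% interval −0.068 to 0.54). HOXB4, which expands blood stem cells, measured 2.15, 2.32 and 2.57 FPKM in siC and 2.40, 2.72 and 2.93 FPKM in siMSI1 (0.18). HOXB7 measured 2.97, 3.29 and 2.68 FPKM in siC and 2.31, 3.20 and 3.42 FPKM in siMSI1 (−0.018). All 3 overlapped between the groups. The ratio of HOXB9 to HOXB8 ranged from 0.845 to 0.874 in siC, against 0.425 to 0.481 in siMSI1. This pair of neighbours was chosen after its values were seen, so the ratio is a description with no test.

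**Figure D3:**
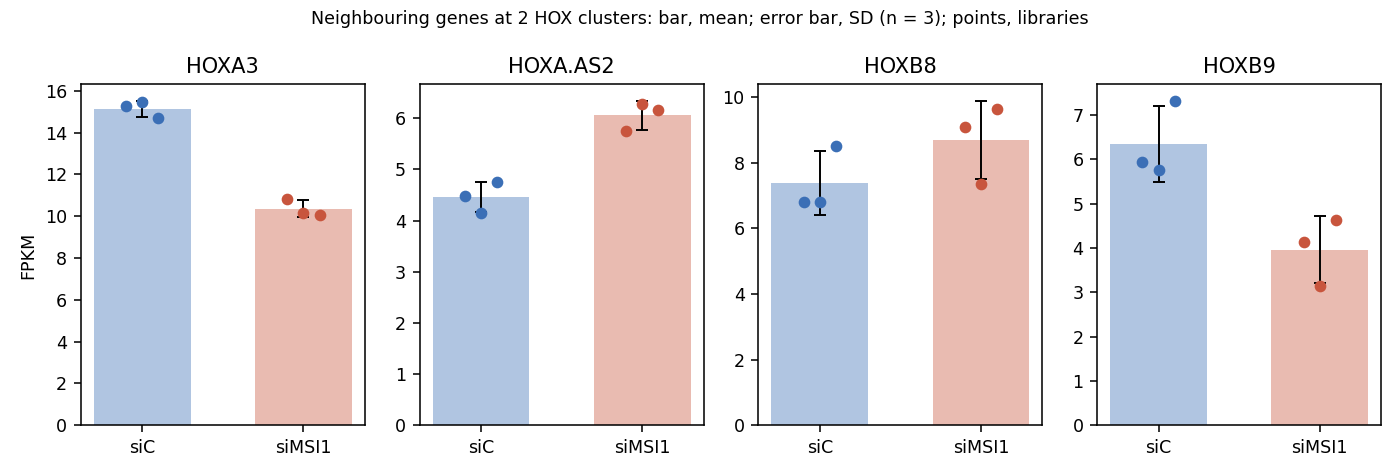
FPKM of 2 pairs of neighbouring genes, HOXA3 with its antisense gene HOXA-AS2 (written HOXA.AS2 in the table) and HOXB8 with HOXB9, in siC and siMSI1. Bars are means from 0, error bars SD (n = 3), points libraries. HOXA3 and HOXB9 are lower in all 3 siMSI1 libraries, HOXA-AS2 is higher in all 3, and HOXB8 overlaps.

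HOXB13, the far tail-end gene of the cluster that also marks prostate tissue, measured 0.578, 0.877 and 0.882 FPKM in siC and 0.313, 0.308 and 0.402 FPKM in siMSI1. With 14 to 55 reads per library, the log2 fold change of −0.98 had a standard error of 0.319 and an adjusted p of 0.059. The test with voom on the recovered reads gave an adjusted p of 0.0088. HOXB13 passed the filter through siC only (mean 0.779 FPKM, against 0.341 FPKM in siMSI1). The filter thus favoured a fall of this gene, and neither p-value is free of that. The 10 HOXB genes together had 74.1 ± 2.53 FPKM in siC and 64.5 ± 2.25 FPKM in siMSI1 (SD, n = 3), or 87.1% of siC.

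In the HOXC cluster, on chromosome 12 from 53938831 to 54056030 (GRCh38, plus strand), HOXC10 fell. HOXC10 marks the lumbar level of the spinal cord. It measured 1.60, 1.49 and 2.06 FPKM in siC and 0.844, 0.851 and 0.747 FPKM in siMSI1, so each siMSI1 library was well below the lowest siC library. The siMSI1 mean was 47.4% of the siC mean, with a log2 fold change of −0.98 (standard error 0.177, 95% interval −1.39 to −0.57, adjusted p = 0.0067 from limma, n = 3 per group). The counts behind it were small, at 56 to 69 reads in siC and 25 to 29 reads in siMSI1. HOXC10 shares 166 of its 2371 exon bases with AC012531.3 on the same strand and 63 with an antisense gene, so its reads may not be fully separate. When any 1 of the 6 libraries was left out, HOXC10 was no longer past the threshold, with adjusted p from 0.015 to 0.028 and log2 fold changes from −1.07 to −0.85.

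The other 5 tested HOXC genes had smaller differences, all with a log2 fold change below 0 and none past the threshold. HOXC9, which sets the thoracic identity of motor neurons, measured 2.50, 1.91 and 1.82 FPKM in siC and 1.37, 1.77 and 1.62 FPKM in siMSI1 (−0.36, adjusted p = 0.15). HOXC8, a neighbour with a role at the limb and thoracic level of the spinal cord, measured 1.27, 1.43 and 1.21 FPKM in siC and 0.862, 1.17 and 1.14 FPKM in siMSI1 (−0.29). HOXC11, next to HOXC10 on the tail side, measured 1.31, 1.27 and 1.51 FPKM in siC and 1.10, 0.888 and 1.39 FPKM in siMSI1 (−0.27). The groups did not overlap in HOXC8 and HOXC9 but did in HOXC11. HOXC6 measured 1.13, 1.11 and 1.37 FPKM in siC and 1.11, 0.840 and 1.02 FPKM in siMSI1 (−0.26). HOXC4 measured 2.72, 2.92 and 2.17 FPKM in siC and 2.56, 2.44 and 2.43 FPKM in siMSI1 (−0.059). Both overlapped between the groups, and they share 484 exon bases on the same strand. The 9 HOXC genes together had 10.4 ± 0.235 FPKM in siC and 8.10 ± 0.266 FPKM in siMSI1 (SD, n = 3), or 77.6% of siC.

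The HOXD cluster, on chromosome 2 from 176092721 to 176190907 (GRCh38, plus strand), had no gene past the threshold (0 of 7 tested by limma, 1 at an unadjusted p under 0.05, 0 by voom, beside the same shares). HOXD9 was that gene, at 8.42, 8.51 and 9.63 FPKM in siC and 6.75, 5.55 and 7.86 FPKM in siMSI1, with a log2 fold change of −0.40 (adjusted p = 0.055). HOXD11, a forelimb and tail-end gene, measured 0.759, 0.681 and 0.593 FPKM in siC and 0.418, 0.434 and 0.429 FPKM in siMSI1 (−0.56, adjusted p = 0.19). In both genes the siMSI1 libraries lay below the siC libraries. HOXD10, of lumbar motor neurons, measured 1.29, 1.58 and 1.14 FPKM in siC and 1.21, 0.595 and 0.983 FPKM in siMSI1 (−0.52, adjusted p = 0.19). Its groups overlapped, and it shares 452 exon bases with HOXD11 on the same strand.

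The remaining 4 tested HOXD genes overlapped between the groups. HOXD8 measured 4.67, 4.71 and 5.08 FPKM in siC and 3.97, 5.40 and 4.90 FPKM in siMSI1 (log2 fold change −0.028, 95% interval −0.31 to 0.25). HOXD13, the gene of the digits, measured 1.13, 1.09 and 0.776 FPKM in siC and 0.969, 1.23 and 0.964 FPKM in siMSI1 (0.079). In both genes the siMSI1 values lay above as well as below siC values. HOXD3 measured 0.564, 0.405 and 0.431 FPKM in siC and 0.325, 0.537 and 0.864 FPKM in siMSI1 (0.18). HOXD4 measured 0.274, 0.566 and 0.570 FPKM in siC and 0.463, 0.521 and 0.761 FPKM in siMSI1 (0.28), with 6 to 16 reads per library. The 95% intervals of these 2 genes, −0.72 to 1.09 and −0.59 to 1.16, include changes in either direction. The 9 HOXD genes together had 17.8 ± 0.559 FPKM in siC and 15.2 ± 1.36 FPKM in siMSI1 (SD, n = 3), or 85.7% of siC.

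**Figure D4:**
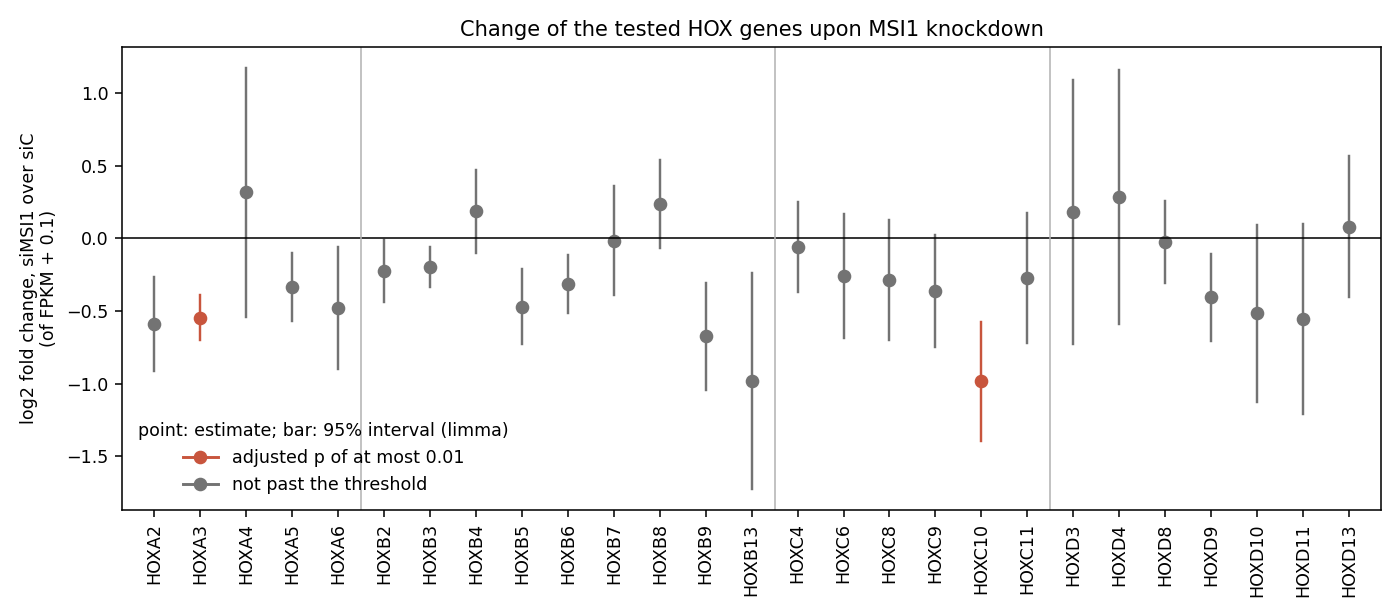
Log2 fold change of siMSI1 over siC, on the log2(FPKM + 0.1) scale, of 27 tested HOX genes in cluster order. Points are limma estimates, bars 95% intervals and red marks an adjusted p of at most 0.01. HOXA3 (−0.54) and HOXC10 (−0.98) are red, and most of the other points lie below 0.

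By paralog number, the median log2 fold change was −0.21 over the 6 tested genes of groups 1 to 3, −0.059 over the 13 of groups 4 to 8, and −0.52 over the 9 of groups 9 to 13. The siMSI1 values lay entirely below the siC values in 4 (66.7%), 5 (38.5%) and 6 (66.7%) genes of these classes, beside 21.5% of all tested genes. Paralogs in the same group did not share a value: the paralogs HOXA3, HOXB3 and HOXD3 had log2 fold changes of −0.54, −0.20 and 0.18. HOXB9, HOXC9 and HOXD9 had −0.67, −0.36 and −0.40. HOXB13 and HOXD11, in groups 9 to 13, passed the filter through siC only, the group where they were higher. Both are among the 6 genes of that class with siMSI1 entirely below siC. HOXD3, in groups 1 to 3, and HOXD4, in groups 4 to 8, passed it through siMSI1 only. Differences between genes or classes were not tested. The 39 HOX genes together went from 130.0 ± 2.15 FPKM in siC to 108.1 ± 4.29 FPKM in siMSI1 (SD, n = 3), or 83.1% of siC. HOXB made up 57.0% of the sum in siC and 59.7% in siMSI1, and HOXA 21.3% and 18.7%.

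Noncoding genes inside the clusters were mostly low. Of 18 cluster lncRNA genes in the table, 6 were tested and 0 were past the threshold by limma. Of all tested genes, 5.83% fell and 5.15% rose past it. At an unadjusted p under 0.05 there were 2 lncRNA genes, in opposite directions. HOTAIR was lower, beside 19.3% of all tested genes, and HOXA-AS2 was higher, beside 19%. By voom 1 was past the threshold, higher, beside 8.81%. The best expressed was HOXB-AS1 at 15.7, 15.5 and 20.1 FPKM in siC and 16.8, 17.2 and 15.0 FPKM in siMSI1 (log2 fold change −0.057). HOXD-AS2 measured 6.21, 5.22 and 7.98 FPKM in siC and 4.37, 5.93 and 5.46 FPKM in siMSI1 (−0.29). Both overlapped between groups. HOTAIR, transcribed from the HOXC cluster near HOXC11 and named here after its values were seen, measured 1.39, 1.08 and 1.39 FPKM in siC and 0.782, 0.792 and 0.963 FPKM in siMSI1 (−0.55, adjusted p = 0.067). Of 6 miRNA genes in the clusters only that of MIR10B passed the filter, with 1 to 10 reads per library, too few to read a change.

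The genes listed as flanking the clusters gave no common direction. Not all of them lie close by: ATP5G3 ends at 175181710 on chromosome 2, and the HOXD cluster begins at 176092721. Of 15 flanking genes, 10 were tested, 1 fell (10%, beside 5.83% of all tested genes) and none rose (beside 5.15%). The 1 was the DNA repair glycosylase SMUG1 beside HOXC, at 8.25, 6.94 and 8.35 FPKM in siC and 4.80, 4.77 and 5.58 FPKM in siMSI1 (log2 fold change −0.63, adjusted p = 0.0053). It was lost when siC replicate 1, siC replicate 3, siMSI1 replicate 1 or siMSI1 replicate 2 was left out, each of which gave 0 genes. The best expressed flanking genes were ATP5G3 (log2 fold change −0.0063), HIBADH (−0.019) and MTX2 (−0.065), none past the threshold. The median over the 10 was −0.013. All siMSI1 values lay above all siC values in 4 of the 10 and below them in 2, beside 21.4% and 21.5% of all tested genes.

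The cofactors of HOX proteins moved in both directions. Of 9 TALE homeobox genes (the PBX, MEIS and PKNOX families), 8 were tested, 2 fell and 1 rose. The 2 are 25% of the 8, beside 5.83% of all tested genes that fell, and 5.15% of all tested genes rose. PBX3 fell from 10.8, 11.5 and 10.1 FPKM in siC to 6.23, 6.32 and 5.86 FPKM in siMSI1 (log2 fold change −0.81, adjusted p = 0.00060). PBX2 rose from 1.23, 1.46 and 1.26 FPKM to 2.26, 2.02 and 2.40 FPKM (0.72, adjusted p = 0.0087). Neither PBX3 nor PBX2 overlapped between the groups, yet leaving out any 1 library left 1 gene lower and 0 higher. MEIS3, among the best expressed of the 8, was not past the threshold (log2 fold change −0.048, adjusted p = 0.79).

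Of 29 Polycomb genes, which silence HOX clusters, all were tested, 4 fell (13.8%, beside 5.83% of all tested genes) and 1 rose (beside 5.15%). The 4 were EZH2, the histone H3 lysine methyltransferase of the complex (log2 fold change −0.40, adjusted p = 0.0081), its partner RBBP4 (−0.47, 0.0041), and the chromobox proteins CBX2 (−0.51, 0.0073) and CBX6 (−1.20, 0.00055). CBX6 measured 5.63, 6.10 and 5.64 FPKM in siC and 2.16, 2.48 and 2.80 FPKM in siMSI1. PCGF1, a ring finger subunit of variant complexes, rose (0.57, adjusted p = 0.0041). The well expressed members RBBP7 (−0.22) and PHF19 (0.053) were not past the threshold. The median over the 29 was −0.073. With any 1 library left out, 2 fell without siMSI1 replicate 2 or siMSI1 replicate 3 and 1 without any of the other 4, while 1 gene rose without siMSI1 replicate 1 or siMSI1 replicate 3 and none without any of the other 4.

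Of 16 genes of the MLL and DOT1L machinery, which keeps HOX genes active, all were tested and 3 fell. This is 18.8%, beside 5.83% of all tested genes, and none rose, beside 5.15%. MLLT1, a reader protein of the elongation complex, fell from 79.5, 72.0 and 77.5 FPKM in siC to 47.4, 44.4 and 50.4 FPKM in siMSI1 (log2 fold change −0.69, adjusted p = 0.00083). WDR5, the core subunit of MLL complexes, had −0.55 (adjusted p = 0.0023), and PSIP1, which tethers MLL to chromatin, had −0.57 (adjusted p = 0.010, just inside the threshold). MEN1 (0.039), the other well expressed member, and the enzymes KMT2A (−0.19) and DOT1L (−0.040) were not past it. KMT2A and DOT1L were named after their values were seen. The median over the 16 was 0.0035, and 1 gene fell without siC replicate 1 or siC replicate 3 and 2 without any of the other 4 libraries.

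Of 18 genes of the retinoic acid pathway, an inducer of HOX genes in the embryo, 12 were tested and 5 rose. Of all tested genes, 5.15% rose. None of the 12 fell, beside 5.83% of all tested genes. The receptor gene RARA went from 5.97, 6.53 and 7.32 FPKM in siC to 12.0, 11.0 and 12.8 FPKM in siMSI1 (log2 fold change 0.84, adjusted p = 0.0012). RDH10, an enzyme of retinoic acid synthesis, went from 16.4, 16.8 and 15.9 FPKM to 26.6, 23.7 and 25.0 FPKM (0.61, adjusted p = 0.0010). The receptor genes RARB (0.55, adjusted p = 0.0038), RARG (0.55, adjusted p = 0.0038) and RXRA (0.54, adjusted p = 0.0055) also rose. The median over the 12 was 0.44, beside 1.46e-05 over all tested genes. With 1 library left out, the number that rose was 2 without siC replicate 1, siC replicate 3 or siMSI1 replicate 1, 3 without siC replicate 2 or siMSI1 replicate 2, and 5 without siMSI1 replicate 3.

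The same libraries expressed transcription factors of the forebrain and midbrain, where HOX genes are normally off. Of 16 such genes 11 were tested, 5 fell (45.5%, beside 5.83% of all tested genes) and none rose (beside 5.15%). DLX5 fell from 103, 102 and 105 FPKM in siC to 64.0, 63.9 and 68.4 FPKM in siMSI1 (log2 fold change −0.66, adjusted p = 0.00052). DLX1 fell most (−0.99, adjusted p = 0.00021), and DLX2 (−0.47, 0.0031) and DLX6 (−0.41, 0.0031) also fell. DLX genes mark forebrain interneurons. DLX1 and DLX2 are neighbours on chromosome 2, and DLX5 and DLX6 on chromosome 7, so these counts are not over independent genes. The list did not move as 1. All siMSI1 values lay below all siC values in 7 of the 11 and above them in 2, beside 21.5% and 21.4% of all tested genes. The median over the 11 was −0.41. With any 1 library left out 2 to 5 of them fell: 2 without siC replicate 1, siC replicate 2, siC replicate 3 or siMSI1 replicate 2, 4 without siMSI1 replicate 1 and 5 without siMSI1 replicate 3. Of 6 factors listed as upstream of HOX genes in the embryo, among them CDX1, CDX2, CDX4, EGR2 and GBX2, 0 passed the filter. The CDX genes had 0 reads.

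**Figure D5:**
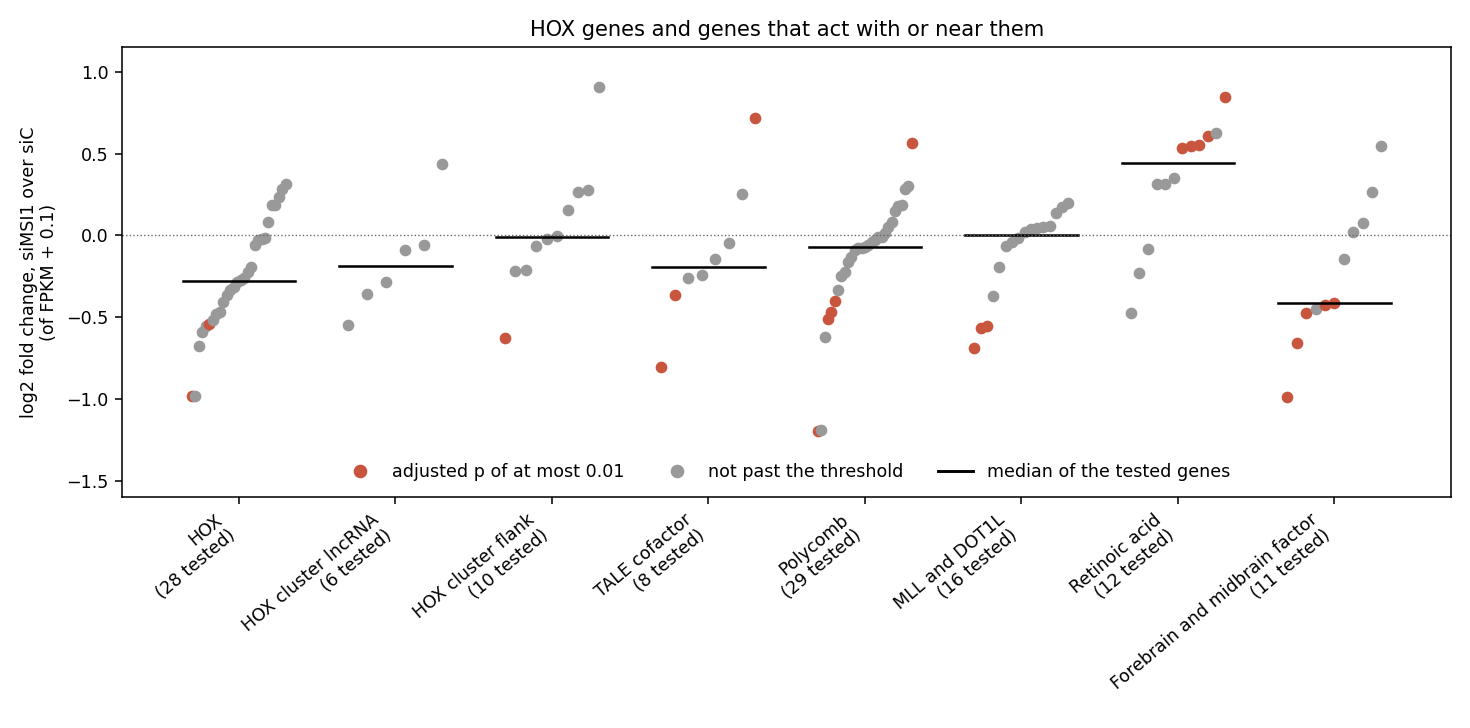
Log2 fold change of siMSI1 over siC, on the log2(FPKM + 0.1) scale, for each tested HOX gene and each tested gene of 7 related lists, sorted within a list. Red points have an adjusted p of at most 0.01, grey points do not, and black lines are medians. The HOX median is −0.28, the retinoic acid median 0.44 and the forebrain and midbrain median −0.41.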

How the data were processed

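The authors clipped the reads with cutadapt 1.14, aligned them to GRCh38 with HISAT2 2.1.0 and counted them per gene with featureCounts 1.5.3 on an Ensembl annotation. They deposited 1 table of FPKM per gene and library, with library sizes scaled by 0.977 to 1.03. Their own comparison by edgeR 3.18.1 stands in the same deposited table as a log2 fold change with p-values, and was not used. FPKM times gene length gave whole reads for 100% of the values (tolerance 0.001). limma 3.58.1 in R 4.3.3 (lmFit, eBayes with trend and robust) was fitted on log2(FPKM + 0.1) of genes with a mean of at least 0.5 FPKM. The fold changes understate those of low genes. No library was a duplicate, as the reads of the closest pair had a chi-square per degree of freedom of 3.55, where 1 is sampling noise. Read limits cover counting error only. Groups and replicate numbers came from the sample labels.

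The HOX genes and the related lists were chosen with earlier results of these data known. Each tested HOX gene is named, and from each list the genes past the threshold and the 3 best expressed, except for a few genes that are not reported here. Gene positions and exon overlaps are from GENCODE release 44 on GRCh38, where 57392 of the 58174 identifiers were found. The fit was tested on simulated data. Alternatives were other added values, filters, scalings, moderation, voom, a replicate block, a threshold of 0.05 and leaving out each library. Python 3.11.15 with pandas 2.3.3, numpy 2.4.6 and matplotlib 3.10.9 did all other steps.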

Additional observations from a re-analysis of the deposited data

How the results depend on the processing

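The count of HOX genes that fell was 2, and it was 0 to 2 when each library was left out. It was 1 with no filter on low genes, 4 with voom (HOXA3, HOXC10, HOXB13 and HOXB9) and 8 at an adjusted p of 0.05 (also HOXB9, HOXA2, HOXB5, HOXB6, HOXB3 and HOXA5). No HOX gene rose under any of the 16 alternatives. Of all tested genes, 1655 changed, against 792 with no filter, 847 with plain moderation, 2855 with voom, 3787 at 0.05 and 517 to 1603 with a library left out.

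HOXA3 was past the threshold in 15 of 16 alternatives (adjusted p from 0.00011 to 0.011) and HOXC10 in 8 of 16 (0.0039 to 0.028). Of 27 genes, 22 kept their direction throughout and 5 changed sign only with a library left out: HOXA4 from −0.030 to 0.54, HOXB7 from −0.12 to 0.15, HOXC4 from −0.18 to 0.026, HOXD8 from −0.12 to 0.093 and HOXD13 from −0.076 to 0.17. The cause was not tested. Of the related lists, 1 to 2 TALE, 1 to 6 Polycomb, 1 to 4 MLL and DOT1L and 2 to 6 forebrain and midbrain genes fell and 2 to 5 retinoic acid genes rose over the 16 alternatives.

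Samples with the same replicate number deviated from their group means with correlations of −0.066, 0.078 and 0.083. Samples with different numbers had correlations from −0.14 to 0.070. With 3 libraries per group, these values cannot tell whether the numbers pair the samples. With a replicate block 2 HOX genes fell, HOXA3 and HOXB9 (adjusted p = 0.0044), while HOXC10 had an adjusted p of 0.014, and 2250 of all genes changed. The planned tests of read counts with a count model were not run, because the table holds FPKM. Depth limits the genes with few reads, among them HOXA4, HOXC10, HOXD3, HOXD4 and HOXD11.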
